A study of Homo sapiens with 9 samples.

Results

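The expressed ZNF zinc finger genes are the genes whose symbol is ZNF followed by a number and whose mean over the 3 Scramble libraries was at least 3 FPKM (fragments per kilobase of transcript, scaled to the depth of the library). This held for 116 of the 433 ZNF genes among the 32906 genes listed, while 132 ZNF genes lay from 1 to under 3 FPKM and 185 under 1. RNA sequencing was done on Huh7 cells, an established hepatocellular carcinoma line, transfected for 48 hours. The 9 libraries were 3 from Scramble, the control siRNA, 3 from Si-KDM4C#1 and 3 from Si-KDM4C#2, siRNAs against the histone demethylase KDM4C. Every library came from the same line under the same culture conditions, with no other genetic change named, and while the study states that its experiments were repeated independently, the labels do not say whether these libraries came from separate cultures, so the p-values may measure technical spread. The comparison asks how the ZNF genes stand when KDM4C is lowered.

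Proteins of this family carry repeated zinc fingers, each a short fold in which 2 cysteines and 2 histidines hold a zinc ion, and a row of fingers reads DNA (in some members RNA). Many also carry a KRAB box, which binds TRIM28, and TRIM28 brings SETDB1, the enzyme that writes the repressive mark H3K9me3. KDM4C removes methyl groups from H3K9, and many KRAB zinc finger genes, often in clusters on chromosome 19, carry H3K9me3 themselves.

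The coding sequences of the family differ in length, number of fingers and base composition. In the translated GENCODE 29 coding sequences, the 116 genes had a median of 8 fingers (highest 31), and in 74 at least 1 finger was followed by the conserved linker of threonine, glycine, glutamate, lysine or arginine, and proline. The 6 stretches that follow show the first such finger with its linker, 78 coding bases each, for 3 genes that rose and 3 that fell with both siRNAs. Capitals mark the codons of the zinc-binding cysteines and histidines.
ZNF787: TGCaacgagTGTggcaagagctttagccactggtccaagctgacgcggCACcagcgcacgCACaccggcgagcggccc
ZNF865: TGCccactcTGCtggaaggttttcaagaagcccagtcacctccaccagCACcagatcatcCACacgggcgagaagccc
ZNF664: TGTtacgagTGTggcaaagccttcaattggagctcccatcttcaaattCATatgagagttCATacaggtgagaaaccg
ZNF195: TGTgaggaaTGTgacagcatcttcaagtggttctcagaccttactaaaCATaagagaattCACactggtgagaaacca
ZNF44: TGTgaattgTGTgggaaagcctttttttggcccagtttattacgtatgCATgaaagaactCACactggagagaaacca
ZNF548: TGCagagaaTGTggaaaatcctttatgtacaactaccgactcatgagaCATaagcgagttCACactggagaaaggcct
The fold is encoded in the same order in all 6, and the GC content of the stretch was 66.7% in ZNF787 and 59.0% in ZNF865, against 43.6% in ZNF664 and ZNF548 and 41.0% in ZNF195 and ZNF44. The bases are coding positions 202 to 279 of ZNF787, 1054 to 1131 of ZNF865, 265 to 342 of ZNF664, 1246 to 1323 of ZNF195, 739 to 816 of ZNF44 and 799 to 876 of ZNF548. GC content of the whole coding sequence ran from 37.0% to 75.0%.

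The promoters differed less than the transcripts did. RefSeq promoter sequences (GRCh38.p14, 250 bases before to 50 after the start) matched 102 of the 116 genes. Those of ZNF787, whose longest transcript was 70.3% GC and which rose with both siRNAs, and of ZNF292, whose longest transcript was 36.5% GC and which fell with both, are shown with every GGGCGG or CCGCCC (the GC box letters on either strand) in capitals.
ZNF787 promoter, chr19:56121246-56121545, minus strand: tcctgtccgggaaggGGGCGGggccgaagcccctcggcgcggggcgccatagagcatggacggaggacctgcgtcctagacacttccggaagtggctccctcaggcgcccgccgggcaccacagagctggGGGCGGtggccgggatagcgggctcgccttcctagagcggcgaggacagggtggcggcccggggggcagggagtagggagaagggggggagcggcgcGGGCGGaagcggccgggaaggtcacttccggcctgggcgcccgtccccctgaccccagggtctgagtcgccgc
ZNF292 promoter, chr6:87155315-87155614, plus strand: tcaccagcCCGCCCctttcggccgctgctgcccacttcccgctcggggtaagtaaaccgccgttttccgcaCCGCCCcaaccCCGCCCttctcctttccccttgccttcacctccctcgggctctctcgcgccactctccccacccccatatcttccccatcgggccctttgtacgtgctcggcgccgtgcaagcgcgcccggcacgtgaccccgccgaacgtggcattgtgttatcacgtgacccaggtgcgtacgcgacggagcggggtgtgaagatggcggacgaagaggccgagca
Their GC contents were 75.0% and 67.0%, and each held the GC box letters 3 times. Single promoters varied in this. That of ZNF598, which rose with both siRNAs, was 73.0% GC with the letters 3 times. That of ZNF638, which fell with both, was 63.7% GC with the letters only 1 time. The GC box letters were in 69.6% of the 102 promoters, in 64.6% of the 12665 promoters of listed protein-coding genes and in 44.6% of all 27305 promoters in the table. Among members whose transcripts were GC-rich (at or above the members' median GC) the share was 66.7%, and among the others 72.2%.

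The libraries held 14597503 to 18058557 fragments, recovered from the FPKM values. The lowest fragment total of any member with whole fragments, summed over a group, was 322. The replicate spread of the members had a median coefficient of variation of 6.18% in Scramble, 6.01% with Si-KDM4C#1 and 5.60% after Si-KDM4C#2. Counting alone gave a median of 4.59% per Scramble library (highest 8.92%), so counting error was not small beside that spread. KDM4C itself was at 4.88, 4.63 and 4.57 FPKM in Scramble, 1.18, 1.10 and 1.13 with Si-KDM4C#1 and 0.256, 0.349 and 0.256 after Si-KDM4C#2. No knockdown library reached the level of any Scramble library (6 against 3, two-sided exact permutation p = 0.0238, the smallest this design gives), and in limma the log2 fold changes were -1.41 and -2.15. The liver label was not borne out by marker mRNAs: 9 of 12 hepatocyte markers were analysed, AFP and HNF4A among them, and all 9 were under 1 FPKM in every library (highest 0.248). Of 10 markers of other cell types analysed, 7 were under 1 FPKM, the fibroblast markers COL1A2 and DCN among them. The fibroblast genes COL1A1, COL3A1 and LUM were expressed. The sum over those 10 was 47.9 to 51.7 FPKM in Scramble, 56.6 to 59.2 with Si-KDM4C#1 and 78.9 to 80.1 with Si-KDM4C#2. Its rise came mostly from COL3A1, which went from 26.2 to 29.01 FPKM in Scramble to 36.7 to 39.8 with Si-KDM4C#1 and 54.2 to 56.3 with Si-KDM4C#2, while LUM went from 6.54 to 7.51 in Scramble to 2.89 to 3.93 with Si-KDM4C#1, and the part of these shifts in the ZNF results was not tested.

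Expression of the family was low to moderate. The 116 Scramble means ran from 3.01 to 43.0 FPKM with a median of 5.01, and 20 were at 10 FPKM or more. The members were chosen by these Scramble levels, which are therefore a description. ZNF195, a KRAB gene at the imprinted end of chromosome 11, was highest at 46.0, 42.6 and 40.4 FPKM. ZNF622, which acts in maturation of the large ribosomal subunit, followed at 38.2 to 41.4 FPKM. These ranges overlapped, and both lay far above the next genes. Next came ZNF131, a BTB zinc finger protein (18.8 ± 0.325 FPKM, SD, n = 3), then ZNF580 (18.0 ± 0.314) and ZNF367 (17.9 ± 0.254). The libraries of ZNF580 and ZNF367 overlapped, and those of ZNF131 lay above both. At the limit, ZNF324 (3.05), ZNF696 (3.02) and ZNF707 (3.01) were just inside, and ZNF174 (2.91), ZNF746 (2.90) and ZNF133 (2.90) just outside.

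The sum over the 116 genes was 845, 819 and 807 FPKM in Scramble, 871, 869 and 857 with Si-KDM4C#1 and 990, 961 and 967 after Si-KDM4C#2. Both knockdown groups lay above Scramble with no overlap, Si-KDM4C#2 further than Si-KDM4C#1. Differences were tested on log2(FPKM + 1) in limma, a scale that understates the change of low genes, with p-values adjusted over all 14363 genes tested. All 116 members passed the filter on low values. Both siRNAs are compared with the same 3 Scramble libraries, which also chose the members, and only the comparison of Si-KDM4C#2 with Si-KDM4C#1 is free of them.

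With Si-KDM4C#1 the family moved both ways in shares near those of all genes. At an FDR under 0.05, 38 of 116 genes rose and 43 fell, 32.8% and 37.1%, against 31.7% and 33.9% of all genes tested and 38.2% and 37.9% of genes at 3 FPKM or more in Scramble, and 35 did not pass. The median log2 fold change was -0.04 over the members and -0.03 over all genes tested, and its sign turned under other scalings. With libraries centred on their medians, 46 members rose and 34 fell. With a fold change over 2 as well, 4 rose (4.04% of all genes tested did) and 4 fell (4.83% of all).

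The largest rise was that of ZNF664, on chromosome 12 from 123971845 to 124015439 (GRCh38). It was at 7.16, 7.68 and 7.97 FPKM in Scramble, at 23.5, 23.9 and 21.2 with Si-KDM4C#1 and at 12.5, 15.1 and 13.3 after Si-KDM4C#2. The 3 groups did not overlap, and the log2 fold change with Si-KDM4C#1 was 1.47 ± 0.073 (SE; limma adjusted p = 1.53e-07). ZNF598, the ubiquitin ligase that marks collided ribosomes, was at 13.0, 10.4 and 11.1 FPKM in Scramble and at 31.4, 31.0 and 34.2 with Si-KDM4C#1, a log2 fold change of 1.41 (limma adjusted p = 2.93e-07). ZNF219 was at 5.24, 4.15 and 4.64 FPKM in Scramble and at 12.6, 12.9 and 14.4 with Si-KDM4C#1 (1.34), and ZNF865, whose protein has 21 fingers, at 6.53, 6.14 and 5.87 and at 15.9, 14.3 and 16.4 (1.20). Each of these genes more than doubled, with every knockdown library above every Scramble library. Smaller rises without overlap were those of ZNF787 (1.00), ZNF579 (0.97), ZNF317, a KRAB gene (0.95), and ZNF768, which binds interspersed repeats (0.75). Of ZNF219's exon bases, 19.1% lie opposite TMEM253, which was at a mean of 0.0710 FPKM in Scramble.

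ZNF638 fell furthest with Si-KDM4C#1. This nuclear protein, also known as NP220, silences unintegrated viral DNA, and its gene was at 11.0, 11.3 and 10.7 FPKM in Scramble and at 3.86, 3.83 and 3.85 with Si-KDM4C#1, a log2 fold change of -1.31 ± 0.045 (SE; limma adjusted p = 2.07e-08). ZNF367 was at 17.8, 18.2 and 17.7 FPKM in Scramble and at 6.80, 7.65 and 6.57 with Si-KDM4C#1 (log2 fold change -1.24). ZNF292, mutated in a form of intellectual disability, was at 7.88, 7.20 and 7.12 and at 3.14, 3.33 and 2.59 (-1.07), and ZNF318, which controls the splicing of IgD in B cells, at 11.6, 11.8 and 11.7 and at 5.66, 5.36 and 4.62 (-1.04). In all 4 the groups were far apart. Without Si-KDM4C#1 replicate 3, ZNF292 and ZNF318 stood at -0.99 and -0.96 and the count past a fold change of 2 went from 4 to 2. ZNF277 (-0.95), ZNF532, a fusion partner of NUT in NUT carcinoma (-0.83), ZNF644, a partner of the H3K9 methyltransferase G9a (-0.79), and the KRAB gene ZNF548 (-0.79) fell less and also without overlap.

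**Figure D1:**
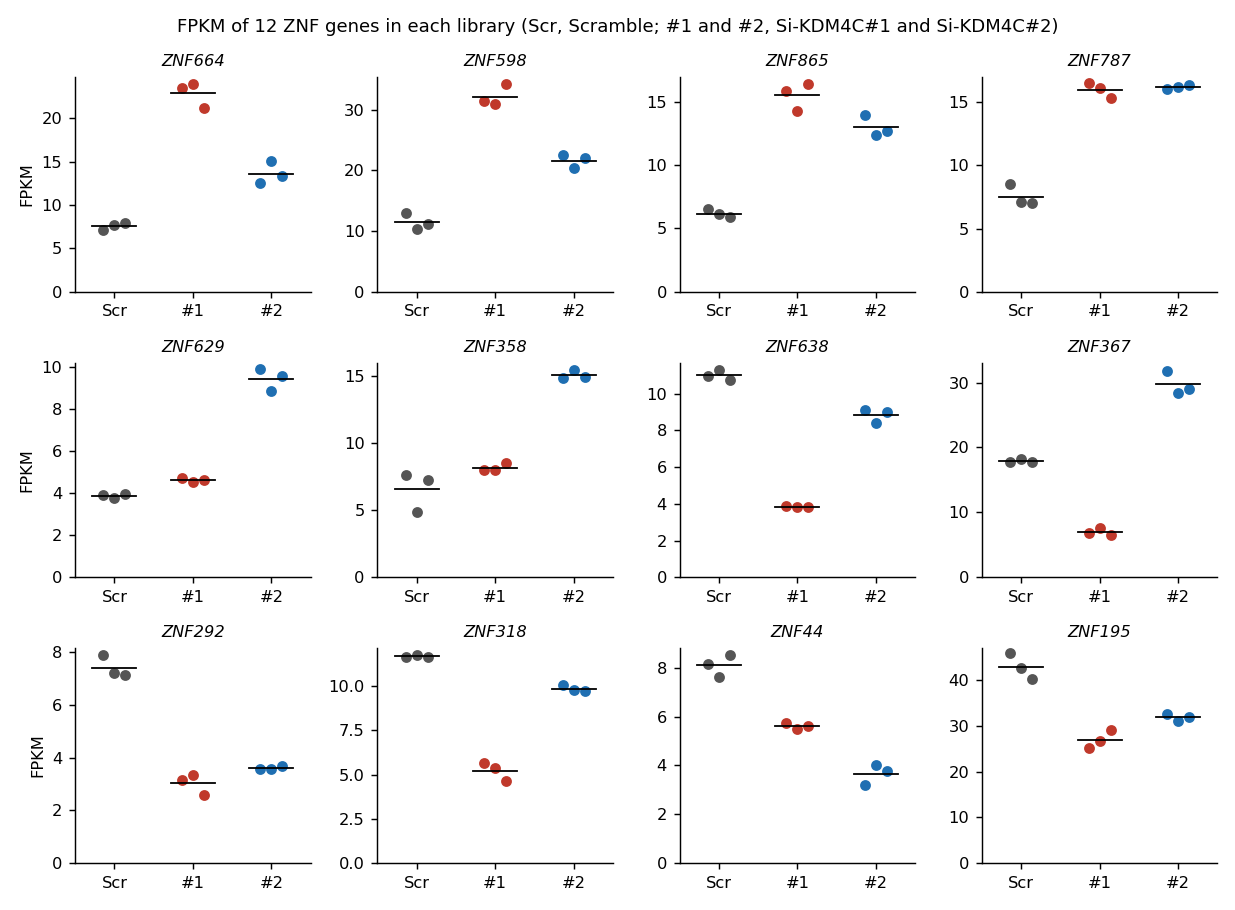
FPKM (vertical axes, from 0) of 12 ZNF genes in the 9 libraries; points are libraries and bars are means of 3. ZNF664, ZNF598 and ZNF865 stood highest with Si-KDM4C#1, ZNF629 and ZNF358 with Si-KDM4C#2, and ZNF367 was below Scramble with Si-KDM4C#1 (mean 7.01 FPKM) and above it with Si-KDM4C#2 (29.7 FPKM).

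With Si-KDM4C#2 more of the family rose than fell. At an FDR under 0.05, 60 of 116 genes rose and 21 fell, 51.7% and 18.1%, against 34.4% and 25.0% of all genes tested and 38.7% and 29.98% of genes at 3 FPKM or more in Scramble, and 35 did not pass. The median log2 fold change was 0.20 over the members and 0.06 over all genes tested. With each library adjusted for GC content, 46 rose and 25 fell and the median was 0.08. Few genes moved far: 3 rose by a fold change over 2 (2.6% of all genes tested did) and 0 fell so (2.3% of all), the latter also 0 at an unadjusted p under 0.05 in limma, and 2 in limma voom on the recovered fragments.

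ZNF358 was at 7.65, 4.86 and 7.25 FPKM in Scramble, at 8.03, 8.01 and 8.51 with Si-KDM4C#1 and at 14.9, 15.5 and 15.0 after Si-KDM4C#2, where the log2 fold change was 1.11 ± 0.123 (SE; limma adjusted p = 4.46e-05). The lower value of the second Scramble library carried part of this, and without Scramble replicate 2 its log2 fold change stood at 0.93. ZNF358 shares 20.2% of its exon bases with AC008878.1, listed at 0 in Scramble. Without Scramble replicate 2, 1 member rose past a fold change of 2 and 1 fell past it, and without Si-KDM4C#2 replicate 2 also 1 fell. ZNF629 was at 3.94, 3.77 and 3.95 FPKM in Scramble and at 9.92, 8.89 and 9.61 with Si-KDM4C#2 (log2 fold change 1.10), while with Si-KDM4C#1 it was at 4.71, 4.52 and 4.65 (0.20). ZNF787 was at 8.48, 7.08 and 6.98 FPKM in Scramble, at 16.5, 16.1 and 15.3 with Si-KDM4C#1 and at 16.0, 16.2 and 16.3 after Si-KDM4C#2 (1.02). ZNF629 stood apart with Si-KDM4C#2, and the ZNF787 libraries of the siRNAs overlapped.

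ZNF865 (log2 fold change 0.96), ZNF317 (0.91), ZNF598 (0.86) and ZNF768 (0.79) also rose with Si-KDM4C#2, with no overlap. ZNF146, whose protein is little more than its 10 fingers, was at 15.1, 15.0 and 14.6 FPKM in Scramble, at 25.1, 25.9 and 25.6 with Si-KDM4C#1 (0.74) and at 28.6, 30.7 and 30.3 with Si-KDM4C#2 (0.95). It shares 10.8% of its exon bases with ZNF565 on the opposite strand, at a mean of 0.472 FPKM in Scramble.

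The largest fall with Si-KDM4C#2 was that of ZNF44, a KRAB gene of chromosome 19. It was at 8.14, 7.63 and 8.53 FPKM in Scramble, at 5.72, 5.48 and 5.60 with Si-KDM4C#1 and at 3.20, 4.02 and 3.76 after Si-KDM4C#2, where the log2 fold change was -0.97 ± 0.070 (SE; limma adjusted p = 2.85e-06). The 3 groups did not overlap. ZNF292 was at 3.57, 3.57 and 3.67 FPKM with Si-KDM4C#2 (-0.87), and the imprinted KRAB gene ZNF331 went from 5.00, 5.05 and 4.64 FPKM in Scramble to 2.18, 2.64 and 2.53 (-0.78). ZNF548 (-0.69), ZNF654 (-0.58), ZNF770 (-0.47) and ZNF621 (-0.44) fell as well, as did ZNF195, the most abundant member, at 32.6, 31.0 and 31.9 FPKM (-0.42). ZNF195, ZNF331, ZNF106 and ZNF266 are the members whose values did not give whole fragments in every library.

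**Figure D2:**
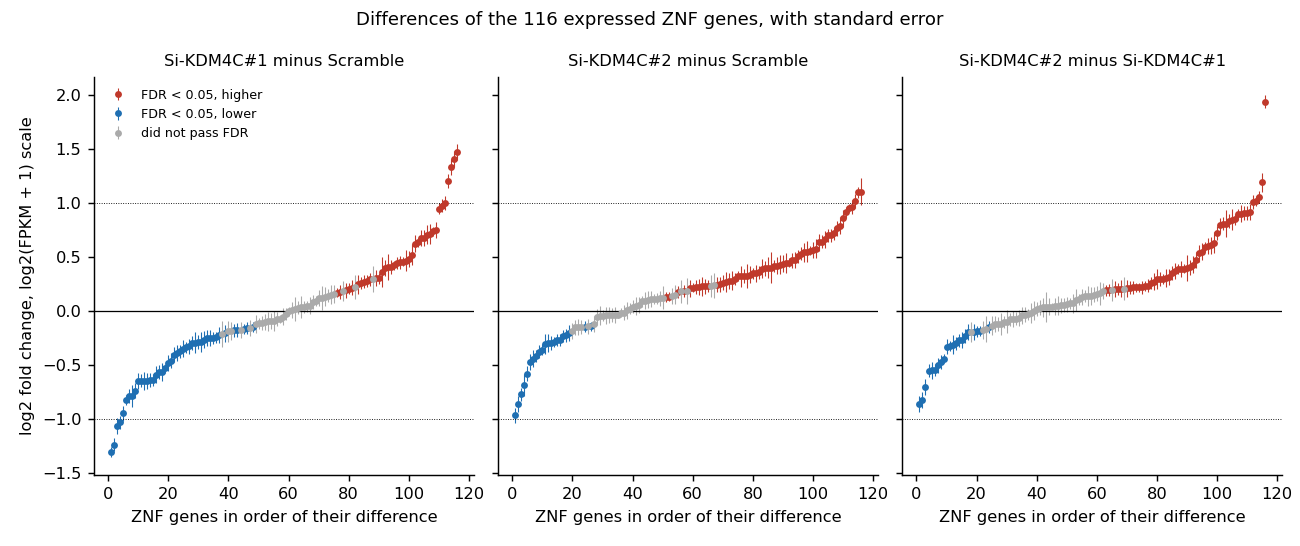
Log2 fold change (vertical axis, log2(FPKM + 1) scale) with standard error of the 116 ZNF genes, ordered within each comparison; dotted lines mark a fold change of 2. Past FDR 0.05, 38 genes rose and 43 fell with Si-KDM4C#1, 60 and 21 with Si-KDM4C#2, and 52 and 21 between the siRNAs.

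Between the siRNAs, 52 members were higher with Si-KDM4C#2 than with Si-KDM4C#1 and 21 lower at an FDR under 0.05, against 35.9% and 26.5% of all genes tested (44.8% and 18.1% of members). This split rested on the scaling: with quantile normalization 39 were higher and 27 lower, with GC adjustment 42 and 29, and with median centring 37 and 31. Median centring moved the median of all genes tested from 0.08 to -0.03 and that of the members from 0.15 to 0.03. With a fold change over 2, 5 were higher (4.41% of all genes tested were) and 0 lower (2.49% of all), the latter also 0 at an unadjusted p under 0.05 in limma, and 2 in limma voom.

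ZNF367 differed most, with 31.8, 28.3 and 29.1 FPKM with Si-KDM4C#2 against 6.80, 7.65 and 6.57 with Si-KDM4C#1, a log2 difference of 1.94 ± 0.060 (SE; limma adjusted p = 1.57e-08). Scramble lay between, so the gene fell with one siRNA and rose with the other (log2 fold change 0.70). The KRAB gene ZNF251 had the same order, at 4.48, 4.84 and 5.06 FPKM in Scramble, 3.12, 2.70 and 2.29 with Si-KDM4C#1 and 7.90, 6.90 and 7.51 after Si-KDM4C#2 (difference between the siRNAs 1.19). ZNF362 was at 7.26, 6.78 and 6.88 FPKM, at 4.27, 3.91 and 4.17 and at 10.2, 9.18 and 9.52 (1.06), and ZNF76, an activator of small nuclear RNA genes, at 4.46, 4.56 and 4.50, at 3.92, 3.41 and 3.20 and at 8.14, 7.87 and 8.18 (1.01). In each of these genes the 3 groups were apart, with Scramble in the middle. ZNF638 (1.02) was below Scramble with both siRNAs, less so with Si-KDM4C#2, where it was at 9.11, 8.40 and 9.02 FPKM. ZNF414 (0.92), ZNF644 (0.91) and ZNF692 (0.91) followed.

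The genes lower with Si-KDM4C#2 than with Si-KDM4C#1 were led by ZNF219, at 7.11, 6.73 and 6.74 FPKM (log2 difference -0.86), and by the hypoxia-induced ZNF395, at 5.67, 5.01 and 5.50 FPKM in Scramble, 9.61, 9.90 and 8.11 with Si-KDM4C#1 and 4.66, 4.62 and 4.97 after Si-KDM4C#2 (-0.82). ZNF395 shares 34.9% of its exon bases with FBXO16 on the same strand. ZNF664 (-0.71), ZNF561 (-0.55), ZNF598 (-0.55), ZNF106 (-0.55), ZNF44 (-0.51) and ZNF331 (-0.47) came next.

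ZNF274 is the KRAB protein known to bring SETDB1 to the ends of ZNF genes, and it was singled out for this role after its values were seen. It was at 4.27, 3.97 and 3.80 FPKM in Scramble, at 2.85, 2.93 and 3.19 with Si-KDM4C#1 (log2 fold change -0.33, limma adjusted p = 0.00188) and at 5.83, 5.08 and 5.86 with Si-KDM4C#2 (0.39, limma adjusted p = 0.000783). The groups did not overlap and lay on opposite sides of Scramble.

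Base composition of the transcript ordered the family in both comparisons with Scramble. The median GC content of the members' longest transcripts was 48.1%. Of the 58 genes at or above it, 28 rose and 15 fell with Si-KDM4C#1, and 44 rose and 2 fell with Si-KDM4C#2. These are 48.3% and 25.9%, and 75.9% and 3.45%, where genes of any kind at 3 FPKM or more in Scramble with GC content in the same range gave 51.0% and 25.3%, and 50.9% and 20.3%. Of the 58 under it, 10 rose and 28 fell with Si-KDM4C#1, and 16 rose and 19 fell with Si-KDM4C#2. These are 17.2% and 48.3%, and 27.6% and 32.8%, where all such genes gave 25.3% and 50.6%, and 26.3% and 39.8%. Across the 116 genes, which are not independent replicates, Spearman's rho between GC content and log2 fold change was 0.51 for Si-KDM4C#1, 0.62 for Si-KDM4C#2 and -0.12 between the siRNAs. The GC split and the limits that follow were chosen after values were seen.

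At the ends of the range the contrast was sharper. Of the 26 members with at least 60% GC, among them ZNF598, ZNF219, ZNF865 and ZNF787, 18 rose and 4 fell (ZNF672, ZNF335, ZNF414 and ZNF517) with Si-KDM4C#1, and 22 rose and 0 fell with Si-KDM4C#2 in limma (0 also at an unadjusted p under 0.05 and in limma voom). Of the 15 under 40% GC, among them ZNF638, ZNF292, ZNF654 and ZNF195, 0 rose in limma (0 also at an unadjusted p under 0.05 and in limma voom) and 13 fell with Si-KDM4C#1, and 1 (ZNF714) rose and 9 fell with Si-KDM4C#2. Exceptions were large: ZNF664 (48.0% GC), ZNF146 (41.4%) and ZNF317 (50.4%) rose with both siRNAs, and ZNF362 (58.3%) fell with Si-KDM4C#1.

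The same order was present among all genes at this level, the ZNF members included. Of 1362 genes of any kind at 3 FPKM or more in Scramble with at least 60% GC, 846 rose and 251 fell with Si-KDM4C#1 and 884 and 174 after Si-KDM4C#2, and of 1518 under 40% GC, 263 rose and 919 fell and 308 and 672. Over 9458 such genes rho was 0.37 with Si-KDM4C#1 and 0.34 after Si-KDM4C#2. With each library adjusted for GC content by lowess, rho over the members was 0.14 and 0.18, and the 58 members at or above the median GC gave 26 rises and 7 falls with Si-KDM4C#2. The adjusted log2 fold change of ZNF787 was 0.59 for Si-KDM4C#1 and 0.52 for Si-KDM4C#2, that of ZNF219 with Si-KDM4C#2 was -0.02 (limma adjusted p = 0.815), and that of ZNF146 was 0.93 and 1.03. Exon length also divided the family. Of the 58 members with exons of under 5414 bases in all, 42 rose and 2 fell with Si-KDM4C#2 (72.4% and 3.45%). Of the other 58, 18 rose and 19 fell (31.0% and 32.8%). Genes of any length at 3 FPKM or more in Scramble gave 38.7% and 29.98%. For Si-KDM4C#1 the shorter set gave 25 rises and 14 falls (43.1% and 24.1%), the longer set 13 and 29 (22.4% and 50.0%). Genes of any length gave 38.2% and 37.9%. The shorter set was richer in GC (median 54.6% against 45.3%). After GC adjustment the Si-KDM4C#2 medians were 0.19 (shorter) and -0.002 (longer), where the sets split by GC content gave 0.12 and 0.04. For Si-KDM4C#1 the adjusted medians were 0.03 (shorter) and -0.04 (longer). The length split was not tested among genes of any kind.

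**Figure D3:**
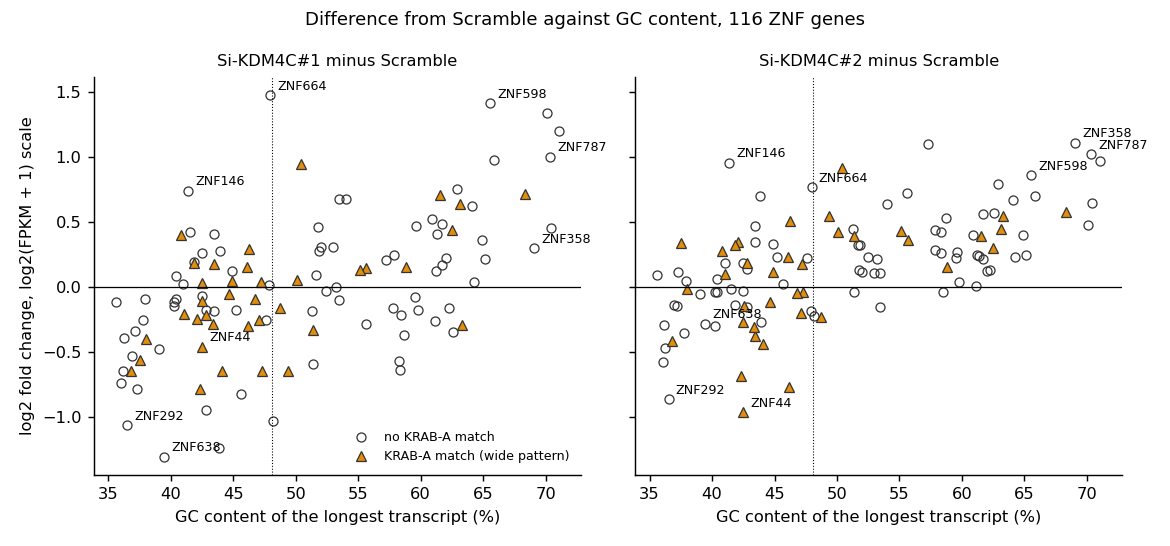
Log2 fold change from Scramble (vertical axis) against GC content of the longest transcript (horizontal axis, %) for the 116 ZNF genes; triangles match the wide KRAB-A pattern and the dotted line is the median GC of 48.1%. Points climb from left to right with both siRNAs, with ZNF146 and ZNF664 above the trend.

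The library medians showed the same split sample by sample. The median log2 difference from the Scramble mean was 0.19, 0.18 and 0.19 over the 58 members at or above the median GC in the Si-KDM4C#1 libraries and 0.45, 0.30 and 0.33 in the Si-KDM4C#2 libraries. Over the 58 members under it the values were -0.15, -0.11 and -0.26 with Si-KDM4C#1 and -0.05, -0.01 and 0.00 after Si-KDM4C#2. Scramble libraries lay between -0.03 and 0.07 in either set. In all 6 knockdown libraries the sets were apart.

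**Figure D4:**
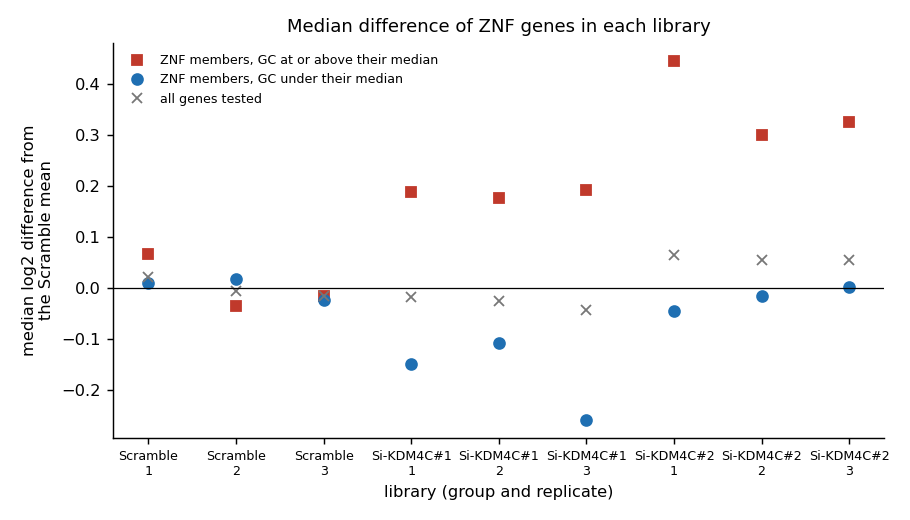
Median log2 difference from the Scramble mean (vertical axis) in each of the 9 libraries for ZNF members at or above their median GC (squares), under it (circles), and all genes tested (crosses). The squares stand at 0.18 to 0.45 in the knockdown libraries and the circles at -0.26 to 0.00.

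Members were also divided by the KRAB box. A KRAB-A pattern matched 27 members. Of these, 3 rose and 14 fell with Si-KDM4C#1 (11.1% and 51.9%) and 12 rose and 8 fell with Si-KDM4C#2 (44.4% and 29.6%). Of the other 89, 35 rose and 29 fell (39.3% and 32.6%) and 48 rose and 13 fell (53.9% and 14.6%). All genes tested gave 31.7% and 33.9%, and 34.4% and 25.0%. Genes at 3 FPKM or more in Scramble gave 38.2% and 37.9%, and 38.7% and 29.98%. A wider pattern, added because known KRAB members were missed, matched 37. Of the 37, 8 rose and 16 fell with Si-KDM4C#1 (21.6% and 43.2%) and 18 rose and 10 fell with Si-KDM4C#2 (48.6% and 27.0%). KRAB genes were poorer in GC (median 46.1% against 51.8%). Under the median GC, 1 of 19 KRAB genes rose and 10 fell with Si-KDM4C#1, against 9 and 18 of 39 without a match. With Si-KDM4C#2 the counts there were 5 and 7 of 19, against 11 and 12 of 39. Genes of any kind at 3 FPKM or more in this GC range gave 25.3% and 50.6%, and 26.3% and 39.8%. At or above the median GC, 2 of 8 KRAB genes rose and 4 fell with Si-KDM4C#1, against 26 and 11 of 50. After Si-KDM4C#2, 7 of the 8 rose and 1 fell, against 37 and 1 of 50. Genes of any kind at 3 FPKM or more in this GC range gave 51.0% and 25.3%, and 50.9% and 20.3%. For Si-KDM4C#1 the GC-adjusted medians of the 27 and the 89 were -0.05 and 0.04. The wider pattern brought them closer, at -0.004 in the 37 and 0.02 in the 79 others. For Si-KDM4C#2 the order turned, at 0.13 in the 27 against 0.05 in the 89. By the wider pattern these were 0.12 against 0.05. By number of fingers, 42 members had 10 or more. Of these, 13 rose and 19 fell with Si-KDM4C#1 (30.95% and 45.24%). With Si-KDM4C#2, 24 rose and 8 fell (57.14% and 19.05%). Of 44 with 5 to 9, 13 rose and 14 fell (29.55% and 31.82%) and 23 rose and 7 fell (52.27% and 15.91%). Of 26 with 1 to 4, 10 rose and 9 fell (38.46% and 34.62%) and 12 rose and 6 fell (46.15% and 23.08%). All genes tested gave 31.7% and 33.9%, and 34.4% and 25.0%. The share of rises followed the number of fingers only with Si-KDM4C#2, and this order was not tested.

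Chromosome 19, home of the large ZNF clusters, held 33 of the members, followed by chromosome 7 with 12. With Si-KDM4C#1, 14 of the 33 rose and 8 fell (42.4% and 24.2%, against 28.9% and 42.2% of the 83 members elsewhere and 31.7% and 33.9% of all genes tested). With Si-KDM4C#2 19 rose and 6 fell (57.6% and 18.2%, against 49.4% and 18.1% elsewhere and 34.4% and 25.0% of all). Neighbouring members, within 500 kb of each other, were grouped after values were seen. One row of 8 lies between 55476332 and 56160893 on chromosome 19 (GRCh38): ZNF628, ZNF579, ZNF524, ZNF865, ZNF580, ZNF581, ZNF787 and ZNF444. All 8 rose with Si-KDM4C#2 and 7 with Si-KDM4C#1, ZNF444 standing at -0.16 (limma adjusted p = 0.0847). This row therefore held 7 of the 14 rises and 0 of the 8 falls on chromosome 19 with Si-KDM4C#1. With Si-KDM4C#2 it held 8 of the 19 rises. ZNF628 went from 3.27, 3.04 and 3.27 FPKM in Scramble to 4.56, 4.89 and 4.72 and to 5.98, 5.46 and 5.22, and ZNF579 from 6.14, 5.53 and 5.92 to 12.5, 11.8 and 13.2 and to 10.5, 10.5 and 9.48. The median GC content of the 8 was 65.4%, and their median log2 fold changes of 0.46 and 0.60 were 0.17 and 0.25 after GC adjustment. With that adjustment 5 of the 8 passed as higher with Si-KDM4C#2, ZNF628, ZNF524 and ZNF581 no longer passing. With Si-KDM4C#1 4 passed as higher, ZNF628, ZNF524 and ZNF580 no longer passing, and ZNF444 passed as lower (-0.32, limma adjusted p = 0.00118). ZNF580 and ZNF581 share 407 exon bases, so their values are not independent.

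**Figure D5:**
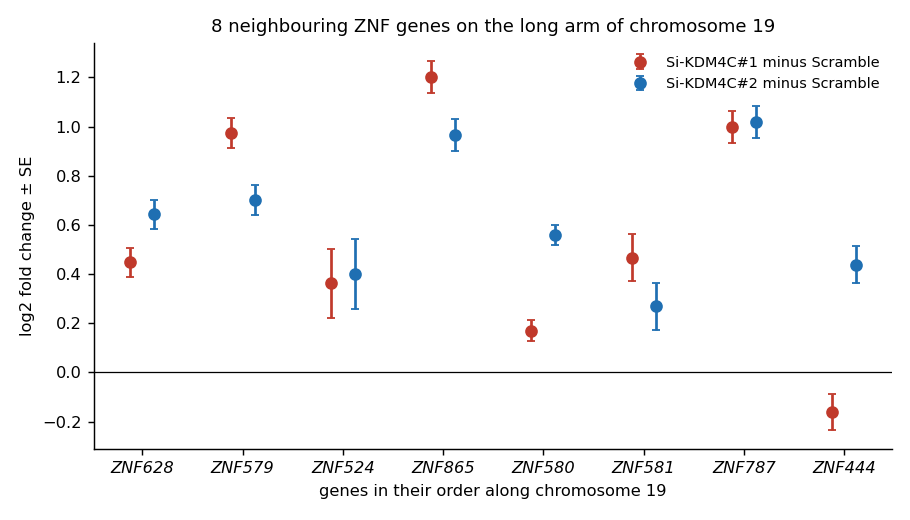
Log2 fold change ± SE (vertical axis) of 8 neighbouring ZNF genes, in their order along chromosome 19, with Si-KDM4C#1 and Si-KDM4C#2. With Si-KDM4C#2 all 8 lie above 0; with Si-KDM4C#1 ZNF865 is highest at 1.20 and ZNF444 is at -0.16.

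The other row of 8, further along the same chromosome from 57389850 to 58475436, is rich in KRAB genes and moved less in concert. It holds ZNF548, ZNF749, ZNF587, ZNF274, ZNF544, ZNF8, ZNF584 and ZNF324, with a median GC content of 47.5%. With Si-KDM4C#1 only ZNF544 passed as higher (log2 fold change 0.29), and ZNF548, ZNF274 and ZNF8 as lower. With Si-KDM4C#2 4 rose and 2 fell (50.0% and 25.0%, against 34.4% and 25.0% of all genes tested). The 5 members from 9140380 to 9675086, ZNF317, ZNF266, ZNF121, ZNF561 and ZNF562, gave 2 rises and 0 falls in limma with Si-KDM4C#1 (0 falls also at an unadjusted p under 0.05 and in limma voom), and 1 rise (ZNF317) and 2 falls with Si-KDM4C#2.

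ZNF genes with less mRNA leaned the same way with Si-KDM4C#2. Of the 132 from 1 to under 3 FPKM in Scramble, 57 rose and 4 fell with Si-KDM4C#2 (median log2 fold change 0.16). These are 43.18% and 3.03%, against 34.4% and 25.0% of all genes tested. With Si-KDM4C#1, 27 rose and 37 fell (-0.05). These are 20.45% and 28.03%, both under the 31.7% and 33.9% of all genes tested. The transcripts of the 132 were GC-poor, with a median of 44.8%. Among other zinc finger families at 3 FPKM or more, 9 of 27 ZBTB genes rose and 12 fell with Si-KDM4C#1. These are 33.3% and 44.4%, against 31.7% and 33.9% of all genes tested. With Si-KDM4C#2, 10 rose and 7 fell, 37.0% and 25.9%, near the 34.4% and 25.0% of all genes tested. Of 6 ZSCAN genes, 0 rose with Si-KDM4C#1 in limma (0 also at an unadjusted p under 0.05 and in limma voom), against 31.7% of all. In that comparison 3 of the 6 fell (50.0%, against 33.9% of all). With Si-KDM4C#2, 1 of the 6 fell (16.7%, against 25.0% of all) and 5 did not pass. Of 3 ZFP genes, 2 rose with Si-KDM4C#2 (66.7%, against 34.4% of all) and 1 with Si-KDM4C#1 (33.3%, against 31.7% of all). Of 3 ZKSCAN genes, 1 rose and 2 fell with Si-KDM4C#1 (33.3% and 66.7%). With Si-KDM4C#2, 1 of these rose and 1 fell.

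A list of 25 genes analysed here held the co-repressors, readers and writers with which KRAB proteins act and the demethylases KDM4A, KDM4B and KDM4C, so the siRNA target itself counts among the falls. With Si-KDM4C#1, 11 rose (44.0%, against 31.7% of all genes tested) and 7 of the 25 fell (33.9% of all did), and with Si-KDM4C#2 14 rose and 4 fell (56.0% and 16.0%, against 34.4% and 25.0%), KDM4B and KDM4C being among the 4. TRIM28, the scaffold that the KRAB box binds, was at 138, 123 and 125 FPKM in Scramble, at 187, 184 and 190 with Si-KDM4C#1 (log2 fold change 0.54) and at 174, 160 and 162 with Si-KDM4C#2 (0.36). Both knockdown groups lay above Scramble. SETDB1, its H3K9 methyltransferase, was at 7.62, 7.44 and 8.21 FPKM in Scramble, at 6.73, 7.39 and 6.93 with Si-KDM4C#1 (-0.13, limma adjusted p = 0.0657) and at 8.63 ± 0.393 (SD, n = 3) with Si-KDM4C#2 (0.14, limma adjusted p = 0.0549), and passed with neither.

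Beside KDM4C, 4 genes of the list moved by a fold change over 2 from Scramble. CHD4, the NuRD remodeller, fell from 24.8, 24.9 and 22.8 FPKM to 6.93, 6.99 and 5.38 with Si-KDM4C#1 (log2 fold change -1.77) and to 14.6, 15.3 and 14.6 with Si-KDM4C#2 (-0.67). UHRF1, the guide of maintenance DNA methylation, rose by 1.15 on the log2 scale with Si-KDM4C#1, and the modifier SUMO2 by 1.07 with Si-KDM4C#2. KDM4B, a paralog of KDM4C, was at 6.67, 6.06 and 6.10 FPKM in Scramble, at 6.42, 5.73 and 5.16 with Si-KDM4C#1 and at 1.10, 1.17 and 1.26 after Si-KDM4C#2 (-1.74), so the libraries of Si-KDM4C#2 were low in both demethylases.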

How the data were processed

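RNA sequencing was analysed in 9 libraries of Huh7 cells, 3 per siRNA group, grouped by the siRNA named in their labels. What the authors deposited is an FPKM value per gene and library, without counts. Per the submitters' processing notes, FastQC 0.11.5, HISAT2 2.1.0, StringTie 1.3.3b, featureCounts, DESeq 1.28.0 and GRCh38 were used. Values are not scaled between libraries beyond FPKM. Multiplied by GENCODE 29 exon length and a fitted total, 97.5% to 97.7% of values above 0 were whole fragments (within 0.05), which gave the depth. A count of 3 fragments corresponded to 0.166 to 0.206 FPKM for a transcript of 1 kb. Fragments of replicates differed beyond sampling noise, with a chi-square of 2.67 to 6.36 per degree of freedom, so all 9 were counted as separate samples.

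The 14363 genes whose mean reached 1 FPKM in any group were compared on log2(FPKM + 1) with limma-trend (limma 3.58.1, R 4.3.3), all 9 libraries in 1 fit without covariates, with Benjamini-Hochberg adjustment. Calls were made at FDR 0.05, alone or with a fold change over 2, the study's limits. On simulated data, 187 of 198 genes changed by a fold of 2 were recovered (94.4% of those changed, among 13938 genes), with 8 false calls. The simulation changed few genes, gave every gene the same dispersion and held no trend with GC content. In the real data 31.7% of genes rose and 33.9% fell with Si-KDM4C#1, so the simulated false calls do not give the error rate here. The members, lists and tests were chosen with earlier results of these data known. Named genes were the 8 largest rises and 8 largest falls without overlap per comparison, members past a fold change of 2, the 5 highest in Scramble, the 3 on either side of the limit, and TRIM28, SETDB1 and partners past a fold change of 2; others, such as ZNF274 and the neighbours on chromosome 19, were named after their values were seen, as were the genes whose sequences are shown. Fingers, KRAB boxes and coding GC came from the longest complete GENCODE 29 coding sequences, since no RefSeq protein table was used here, and a planned SCAN pattern was dropped because it matched 6 of 21 ZSCAN and ZKSCAN genes. Strand use in counting is not given in the sources used here, so the 53 members that share exon bases with another gene, 21 of them over 10% with a listed gene, are less certain. Alternatives are listed in the closing section. The scripts used Python 3.11.15, numpy 2.4.6, pandas 2.3.3, scipy 1.17.1 and matplotlib 3.10.9.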

Additional observations from a re-analysis of the deposited data

How the results depend on the processing

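The alternatives were quantile normalization, median centring, a pseudocount of 0.1, no filter (32906 genes), a minimum of 1 FPKM across all libraries (11171 genes), fits of 6 libraries, a replicate block, an FDR of 0.01, lowess adjustment for GC content (span 0.3, 14343 genes), limma voom on recovered fragments (16010 genes, 112 members), other limits for the members (a mean over 9 libraries, 131 genes; 10 FPKM, 20 genes; 1 FPKM, 248 genes) and each library left out. The wider KRAB pattern was added after seeing the data. Of 339 counts and medians over members, 283 stayed within 1.5 times or 1 SD; the cause of the moves was not tested, apart from the limits for members, which change how many genes are counted. Of 596 values of named genes, 586 kept direction and side of the threshold. With GC adjustment, ZNF131 with Si-KDM4C#1 turned from -0.07 to 0.10 (limma adjusted p = 0.0309) and ZNF580 from 0.17 to -0.066 (limma adjusted p = 0.289). The replicate numbers did not pair the libraries (mean correlation of deviations 0.0162 over 9 same-numbered pairs, -0.0081 over 18 others), and with the replicate block 37 rose and 45 fell with Si-KDM4C#1, 59 and 22 with Si-KDM4C#2, and between the siRNAs the counts were 52 and 19. No count over the members moved by over 1.5 times with the block, and no named gene changed its side of the threshold.

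Past a fold change of 2 with Si-KDM4C#1, 7 members were higher with median centring, with the pseudocount of 0.1, with voom, by the mean over 9 libraries and at 1 FPKM, 2 with GC adjustment and 1 at 10 FPKM; 2 were lower with median centring and 7 with the pseudocount or voom. With Si-KDM4C#2, 5 were higher with the pseudocount or voom, 1 with GC adjustment and 0 at 10 FPKM; 1 was lower with quantile normalization or median centring and 2 with the pseudocount or voom. Between the siRNAs, 2 were higher with quantile normalization, median centring or at 10 FPKM, 12 with the pseudocount, 3 with GC adjustment and 8 at 1 FPKM, and 2 were lower with voom. Past FDR, at 10 FPKM 7 rose and 10 fell with Si-KDM4C#1, 11 and 7 with Si-KDM4C#2, and between the siRNAs the counts were 13 and 4; at 1 FPKM 65 rose and 80 fell with Si-KDM4C#1, 117 rose with Si-KDM4C#2 and 105 were higher between the siRNAs. With GC adjustment, 17 members under the median GC rose with Si-KDM4C#1, and 26 at or above it rose and 7 fell with Si-KDM4C#2. At an FDR of 0.01, 9 members at or above the median GC fell with Si-KDM4C#1 and 9 under it rose with Si-KDM4C#2. Of the partners of KRAB proteins, 7 fell with Si-KDM4C#2 under quantile normalization. The members' median log2 fold change with Si-KDM4C#1 was 0.016, 0.027, 0.0070 and 0.044 with quantile normalization, median centring, GC adjustment and voom, 0.042 by the mean over 9 libraries and -0.18 at 10 FPKM; with Si-KDM4C#2 it was 0.15, 0.15 and 0.082 with the first 3 and 0.23 by the mean over 9 libraries; between the siRNAs it was 0.038, 0.033, 0.025 and 0.059 with those 4 and 0.22 at 10 FPKM.

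Leaving out 1 library at a time gave 35 to 38 rises and 35 to 42 falls with Si-KDM4C#1, 49 to 60 and 18 to 22 with Si-KDM4C#2, and 46 to 52 and 18 to 20 between the siRNAs. Past a fold change of 2 the ranges were 4 to 6 and 2 to 4, 1 to 3 and 0 to 1, and 4 to 6 and 0. The member medians ran from -0.06 to -0.03, from 0.14 (without Si-KDM4C#2 replicate 1) to 0.21 and from 0.13 to 0.17.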
